A study of Mus musculus with 18 samples.

Results

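Epidermal growth factor (EGF) was added to C3H10T1/2 mouse fibroblasts that received an adipogenic mix after exposure to TCDD. The comparison set the 2 arrays of IDMB + EGF + TCDD against the 2 arrays of IDMB + TCDD, chosen by their titles, so it used 4 of the 18 arrays of the series. C3H10T1/2 is an established fibroblast-like line from mouse embryo that can turn into fat cells, and TCDD is a dioxin that activates the aryl hydrocarbon receptor. Both groups had 10 nM TCDD for 72 hours and the mix for 24 hours. The mix (IDMB) held 10 µg/mL insulin, 1 µM dexamethasone, 0.5 µM of the phosphodiesterase inhibitor IBMX and 1 µM of BRL49653, an agonist of the fat cell regulator PPARγ. The EGF group had 10 nM EGF for 24 hours in addition. All cultures were taken 24 hours after confluence, at which time the last serum addition lay 72 hours back. Each array measured RNA pooled from 6 cultures, so the 2 arrays of a group average over cultures before they are compared. The other groups used for reference were UT (3 arrays, with no addition named in the labels), EGF (2), TCDD (2), EGF+TCDD (2), IDMB (3) and IDMB + EGF (2).

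EGF binds the receptor tyrosine kinase EGFR, which passes the signal through adaptor proteins and Ras to the kinase ERK. ERK induces immediate early transcription factors such as EGR1, and also its own inhibitors, among them the phosphatase DUSP6. In preadipocytes, sustained ERK signalling is known to oppose the differentiation programme driven by PPARγ and C/EBPα. The aryl hydrocarbon receptor pairs with ARNT when a ligand such as TCDD binds, and the pair switches on drug-metabolizing enzymes including CYP1A1, CYP1B1 and ALDH3A1.

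Intensities were floored at 143.5 (7.16 on the log2 scale), and a probe set (called a probe here) was tested if at least 1 group mean reached 9.731 on the log2 scale. The test was limma over all 18 arrays, with Benjamini-Hochberg adjustment over 7134 probes, and a probe passed at an adjusted p under 0.05. All levels below are log2 intensities, and all differences are log2 differences, EGF minus no EGF, with the standard error (SE) of the fit. Array medians were 793 to 936 intensity units. The fibroblast label fitted the markers Col1a1 (16.36 to 16.50), Col1a2 (16.17 to 16.90) and Col3a1 (14.84 to 15.56) on the 4 arrays, whereas Vim was below the threshold for testing at 8.43 to 9.42. The adipocyte markers were low. Adipoq lay at 7.53 to 8.90, Cd36 at 7.16 to 8.16 and Fabp4 at 9.22 to 9.91, and Lpl was at the floor on all 4 arrays.

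The arrays within and between the compared groups differed in ways that the labels do not give. The correlation over the 7134 probes tested was 0.952 between the 2 IDMB + TCDD arrays and 0.955 between the 2 IDMB + EGF + TCDD arrays. IDMB + TCDD 1 correlated with IDMB + EGF + TCDD 1 at 0.951, as closely as with its own replicate. The 3′ to 5′ signal ratio of the Gapdh control probes, a measure of RNA integrity and labelling length, was 1.05 and 1.09 on the IDMB + TCDD arrays and 2.13 and 2.86 on the IDMB + EGF + TCDD arrays. The actin ratio was 1.98 and 2.07 without EGF and 2.48 and 3.80 with EGF. Both ratios therefore moved with the EGF treatment, without overlap between the groups. With either ratio as a covariate no probe passed, against 20 without (410 with the Gapdh ratio and 416 with the actin ratio had an unadjusted p under 0.05, against 847). Since the ratio and the group move together in this comparison, their parts cannot be told apart.

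**Figure D1:**
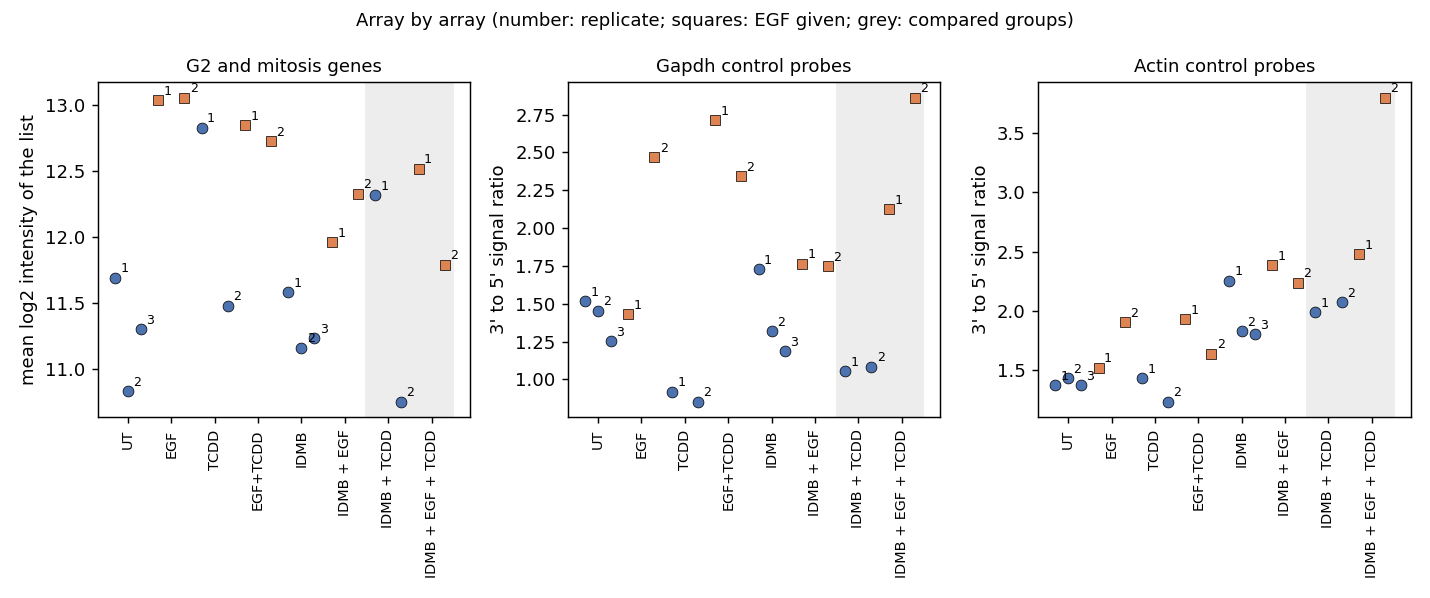
Array measures on all 18 arrays by group: the mean log2 intensity of 58 G2 and mitosis genes (left) and the 3′ to 5′ signal ratio of the Gapdh (centre) and actin (right) control probes. Each point is 1 array with its replicate number; the compared groups are shaded. IDMB + TCDD 1 and 2 lie far apart for the mitosis genes, at 12.32 and 10.75, and both ratios are higher on the IDMB + EGF + TCDD arrays.

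The markers of the EGF response, Egr1 and Dusp6, were higher on both EGF arrays than on either IDMB + TCDD array, but neither passed the test. Egr1, an immediate early zinc finger transcription factor, read 13.39 and 10.23 on the IDMB + TCDD arrays and 13.88 and 14.09 with EGF. The difference was 2.18 (SE 0.699, adjusted p = 0.218), a 4.53-fold higher level. The 2 IDMB + TCDD arrays differed from each other more than their mean differed from the EGF arrays. Without IDMB + TCDD 1 the Egr1 difference was 3.76 (adjusted p = 0.00966), which passed, and without IDMB + TCDD 2 it was 0.60 (adjusted p = 0.927). Dusp6, the phosphatase that turns ERK off, read 9.85 and 8.65 without EGF and 10.62 and 10.95 with EGF. Its difference was 1.53 (SE 0.573, adjusted p = 0.298), or 2.89-fold, and it was 2.13 without IDMB + TCDD 1 and 0.93 without IDMB + TCDD 2. In the other backgrounds the EGF effect on Egr1 was 3.25 in the mix without TCDD (passed), 1.58 with TCDD and no mix (not passed) and 2.52 in UT cells (passed). For Dusp6 it was 1.87, 1.64 and 3.42 in that order, of which the UT value passed.

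**Figure D2:**
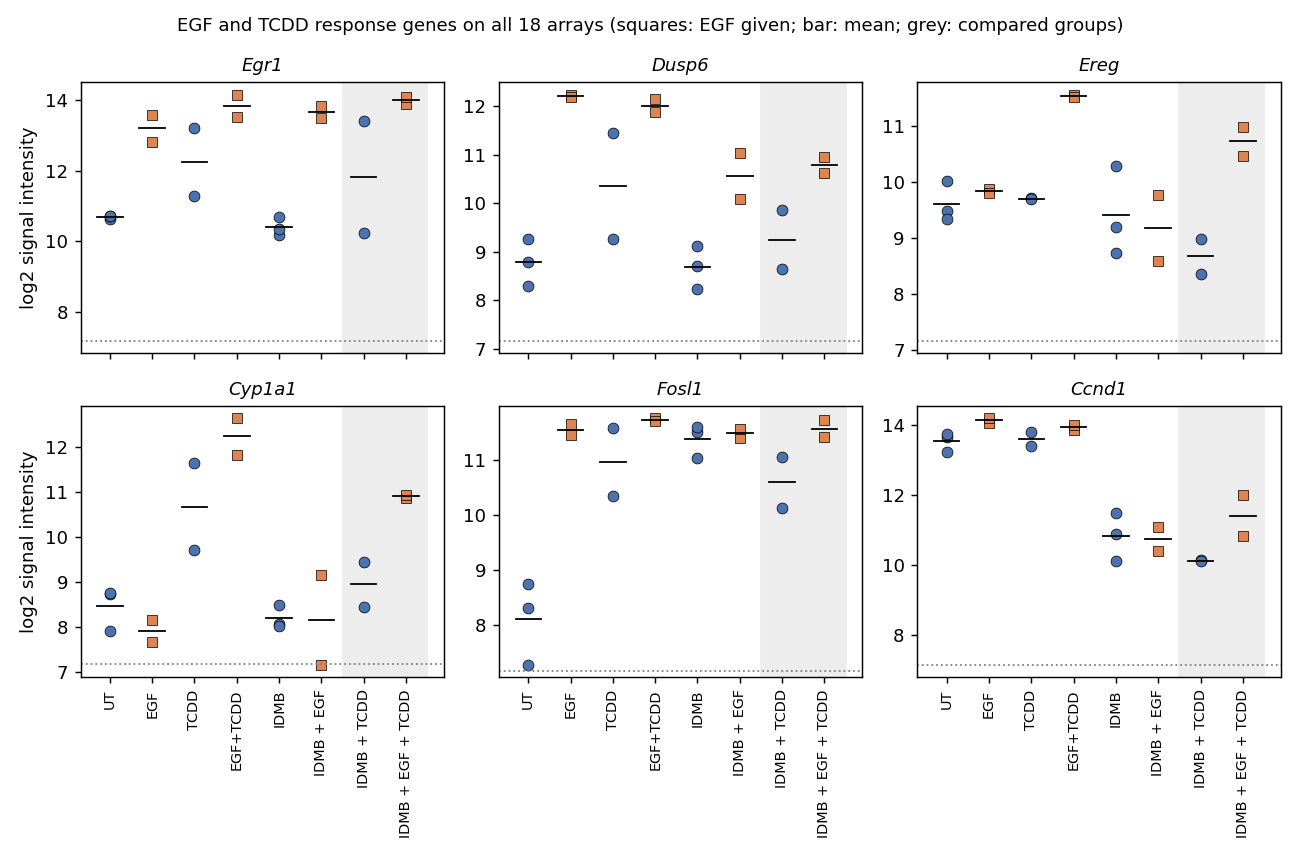
Log2 intensity of 6 genes on all 18 arrays by group, with squares for groups given EGF, a bar for the group mean and shading for the compared groups. Egr1, Dusp6, Ereg and Cyp1a1 are higher on both IDMB + EGF + TCDD arrays than on both IDMB + TCDD arrays, and the 2 IDMB + TCDD arrays are far apart for Egr1 (13.39 and 10.23).

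Among ERK-induced transcription factors, 20 were tested and 0 passed, while 8 had an unadjusted p under 0.05 with a higher level and 0 with a lower level. Over all 5436 genes tested by their brightest probe, 5.72% had an unadjusted p under 0.05 with a higher level and 5.43% with a lower level. The median difference of the list was 0.43 (0.66 without IDMB + TCDD 1), against 0.04 over all genes. For 10 of the 20 genes both EGF arrays lay above both IDMB + TCDD arrays, a pattern that 26.1% of all genes had (21.4% had the opposite one). Besides Egr1, the 8 were the zinc finger factors Egr2 (1.49) and Klf4 (0.86), the AP-1 subunit Fosl1 (0.97), the stress factor Atf3 (1.76), the ETS factor Ets2 (0.85), the nuclear receptor Nr4a1 (1.45) and the chromatin protein Hmga2 (1.36). Adjusted p-values of these genes were 0.117 to 0.403, and Atf3 was near the floor without EGF, at 7.16 and 7.47. With the Gapdh ratio as a covariate Ets2 was -0.16 and Hmga2 -0.10, while the list median was 0.78. Fosl1 read 11.06 and 10.13 without EGF and 11.42 and 11.72 with EGF. In UT cells the EGF effect on Fosl1 was 3.44 and passed, from a lower starting level. Myc differed by 0.12 (SE 0.271).

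Of the ERK feedback inhibitors 6 were tested, 0 passed and 1, Dusp6, had an unadjusted p under 0.05. Their median was 0.33, but 0.05 without IDMB + TCDD 2, 0.19 without IDMB + EGF + TCDD 2, 0.52 without IDMB + TCDD 1 and 0.08 with the actin ratio as a covariate. Errfi1, a direct inhibitor of EGFR, differed by -0.01 here and by 1.20 in UT cells, where it passed.

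The list of EGFR, its relatives and their adaptors had a median of -0.12 (-0.30 without IDMB + EGF + TCDD 1). Of its 15 tested genes 0 passed, and 4 had an unadjusted p under 0.05, all lower with EGF (26.7%, against 5.43% of all genes). Egfr itself read 11.35 and 11.25 without EGF and 10.90 and 10.63 with EGF, a difference of -0.53 (SE 0.235, adjusted p = 0.387). The adaptor Shc1 differed by -0.84 (adjusted p = 0.12), and the adaptor Grb2 by 0.12. The EGF family ligand Ereg (epiregulin) read 8.99 and 8.36 without EGF and 10.47 and 10.99 with EGF. That difference of 2.05 (SE 0.473) was 4.15-fold and had an adjusted p of 0.0707. In cells with TCDD and no mix, EGF raised Ereg by 1.84, which passed, whereas its EGF effects without TCDD were -0.23 in the mix and 0.23 in UT cells. The ligand Hbegf differed by -0.53.

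Enzymes and partners of the aryl hydrocarbon receptor held the gene with the widest difference that passed. Aldh3a1, an aldehyde dehydrogenase and a classical dioxin-induced gene, read 9.92 and 10.17 without EGF and 12.34 and 13.16 with EGF. It rose by 2.70 (SE 0.462, adjusted p = 0.0219), or 6.51-fold. Both EGF arrays were above every other array of the series, whose highest value was 12.11. A second, brighter Aldh3a1 probe read 14.64 and 14.43 without EGF and 15.84 and 16.09 with EGF, a difference of 1.43 (adjusted p = 0.0987) that did not pass. The suffix of the first probe's name (_f_at) marks a set that shares sequence within a gene family and can bind transcripts of related genes. EGF raised the first probe by 2.32 in cells with TCDD and no mix, which passed, and its effects without TCDD were 0.31 in the mix and -0.21 in UT cells. On the arrays without TCDD this probe lay at or near the floor, at 7.16 to 7.85. For the brighter probe the EGF effect was 1.14 with TCDD and no mix, 1.22 in the mix and 0.66 in UT cells, and none of these passed.

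The other dioxin-responsive genes moved less or varied more. Cyp1a1, the cytochrome P450 that serves as the standard marker of receptor activation, read 9.44 and 8.45 without EGF and 10.88 and 10.93 with EGF. Its difference of 1.96 (SE 0.658) was 3.89-fold, with an adjusted p of 0.246. Cyp1b1 was near the top of the intensity range on all 4 arrays, at 16.90 to 17.25, and differed by 0.27. Tiparp, a feedback inhibitor of the receptor, differed by 0.40 and Nqo1 by 0.15. The receptor gene Ahr read 10.73 and 10.58 without EGF and 11.48 and 11.81 with EGF, a difference of 0.99 (adjusted p = 0.246). Its partner Arnt read 10.77 and 10.69 without EGF and 9.01 and 9.16 with EGF, a difference of -1.64 (SE 0.338, adjusted p = 0.0551). The second Arnt probe was too dim to test. By the brightest probe of each gene, 12 genes of the list were tested and 0 passed. At an unadjusted p under 0.05, 4 had a higher level and 1 a lower level, against 5.72% and 5.43% of all genes. The list median was 0.41. Aldh3a1 is counted in the list by its brighter probe.

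Promoters of 2 genes are shown because they carry the letters of the core dioxin response element, GCGTG, in capitals on either strand, in a gene of the receptor's own battery and in a gene that passed. They are 300 bases from RefSeq (GRCm38.p6), 250 before to 50 after the annotated start. The Cyp1a1 window is chr9:57697363-57697662 on the plus strand, and the Rnf149 window is chr1:39577298-39577597 on the minus strand.
Cyp1a1: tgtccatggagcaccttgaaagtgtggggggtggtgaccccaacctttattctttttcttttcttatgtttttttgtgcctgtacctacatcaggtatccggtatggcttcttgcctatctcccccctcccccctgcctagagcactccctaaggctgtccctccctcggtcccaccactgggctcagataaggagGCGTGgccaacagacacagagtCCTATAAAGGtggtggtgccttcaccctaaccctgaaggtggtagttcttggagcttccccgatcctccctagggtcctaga
Rnf149: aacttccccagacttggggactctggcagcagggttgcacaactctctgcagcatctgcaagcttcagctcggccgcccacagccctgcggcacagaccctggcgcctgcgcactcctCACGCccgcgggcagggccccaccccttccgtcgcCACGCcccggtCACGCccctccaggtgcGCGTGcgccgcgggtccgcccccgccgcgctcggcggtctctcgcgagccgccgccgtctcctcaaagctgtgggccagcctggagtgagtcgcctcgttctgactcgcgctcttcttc
In the Cyp1a1 window the second run in capitals is a CArG box by its letters, and it includes the letters TATAAA. The Rnf149 window holds GCGTG 4 times over both strands. Promoters were at hand for 5 of the 11 named genes that rose and 5 of the 7 that fell, with 6 and 10 windows because some genes have several starts. GCGTG was in 3 of the 6 windows of genes that rose, in 5 of the 10 of genes that fell, and in 52.0% of 5716 windows of all genes tested. The AP-1 site TGANTCA was in 0 of the 6, 0 of the 10 and 5.58% of all windows. CCAAT was in 4 of the 6, 8 of the 10 and 37.6% of all. The CRE letters TGACGTCA and the CArG box were in none of the 16 windows (2.94% and 1.52% of all), and the CHR letters TTTGAA were in 1, in 2 and in 12.2%. A match describes letters only and is no evidence of binding.

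Over all probes the EGF difference was small in number. Of 7134 probes 20 passed (0.28%), 11 with a higher and 9 with a lower level, and 847 had an unadjusted p under 0.05. After scaling all arrays to a common median 37 passed, of which 11 were higher and 26 lower. By the brightest probe of each of 5436 genes, 9 genes rose (0.166%) and 3 fell (0.0552%). Each of the 4 fits that leave out 1 of the compared arrays has a group with 1 array. None of them kept all 20 probes, and most of the probes that passed without IDMB + TCDD 1 were not among the 20. No named gene passed in all 4 of those fits, and the best, Rnf149, Ssr3 and Wdr55, passed in 2. Fits on the 9 arrays with the mix, or on the 4 arrays alone, gave 0 calls (714 and 999 with an unadjusted p under 0.05).

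The genes that rose are described singly and not as tested groups. Ncoa6, a coactivator of nuclear receptors, read 7.16 and 7.95 without EGF and 10.27 and 10.17 with EGF, a rise of 2.66 (SE 0.407, adjusted p = 0.0144). The first of these values is the floor, and a second Ncoa6 probe differed by 0.03. Gspt2, a GTPase related to the translation release factor eRF3, read 7.16 and 7.53 without EGF and 9.32 and 10.30 with EGF, a rise of 2.46 (SE 0.384, adjusted p = 0.0144). Wdr55, a WD repeat protein, read 7.87 and 7.16 without EGF and 9.47 and 10.06 with EGF, a rise of 2.25 (adjusted p = 0.0218). In all 3 genes the IDMB + TCDD arrays lay at or near the floor. They were also the lowest of the 18 arrays: the other 16 arrays read 8.42 to 10.57 for Ncoa6, 9.32 to 10.64 for Gspt2 and 8.87 to 10.35 for Wdr55.

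Chd8, a chromatin remodelling helicase, read 11.53 and 11.35 without EGF and 12.77 and 12.55 with EGF, a rise of 1.22 (SE 0.195, adjusted p = 0.0144). Rnf149, a RING finger ubiquitin ligase, read 11.27 and 11.18 without EGF and 12.28 and 12.60 with EGF, a rise of 1.21 (SE 0.186, adjusted p = 0.0144). Set, a histone chaperone and inhibitor of protein phosphatase 2A, read 12.26 and 12.27 without EGF and 13.15 and 13.06 with EGF. Its rise of 0.84 (adjusted p = 0.0302) was the narrowest that passed, and a second Set probe differed by 0.13. In all 3 genes the gap between the groups was wider than the spread within either pair. Genes that passed were named only if the groups did not overlap, so the separation itself is no added evidence.

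Among genes of the cytoskeleton and matrix, Synpo, an actin-associated protein, read 11.58 and 10.81 without EGF and 12.64 and 12.75 with EGF, a rise of 1.50 (adjusted p = 0.0473). Dock5, an exchange factor for the GTPase Rac, read 10.39 and 10.19 without EGF and 11.64 and 11.53 with EGF, a rise of 1.30 (adjusted p = 0.0302). Ccn5, a matricellular protein of the CCN family, read 12.91 and 12.86 without EGF and 14.23 and 14.50 with EGF. It rose by 1.48 (SE 0.284, adjusted p = 0.0379), or 2.79-fold, and both EGF arrays were above all 16 other arrays, which reached 13.76. Aebp1, a secreted carboxypeptidase-like matrix protein, read 12.56 and 12.30 without EGF and 13.36 and 13.85 with EGF, a rise of 1.17 (adjusted p = 0.0402). For Aebp1 the IDMB + TCDD arrays were the lowest of the series, and the UT arrays were highest, at 14.50 to 15.07.

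**Figure D3:**
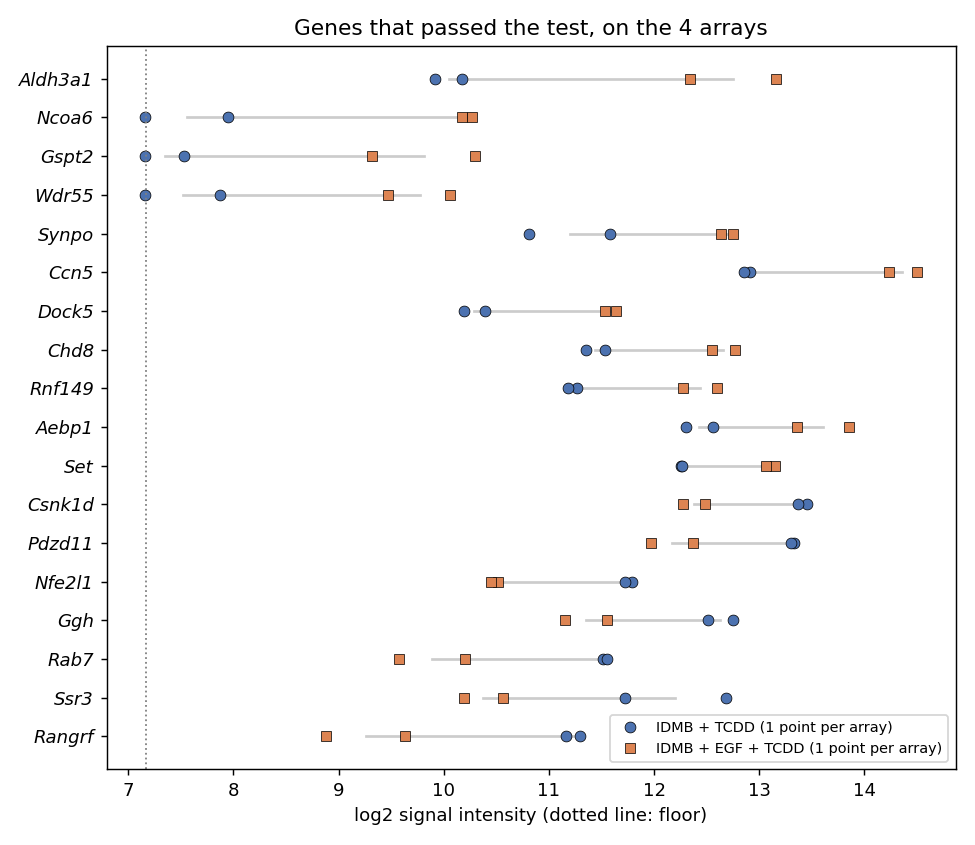
Log2 intensity of the 18 named genes that passed, with circles for the 2 IDMB + TCDD arrays, squares for the 2 IDMB + EGF + TCDD arrays, a grey line between the group means and a dotted line at the floor. The groups do not overlap for any of these genes, which was a condition for naming them. Ncoa6, Gspt2 and Wdr55 each have 1 IDMB + TCDD array on the floor.

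The genes that fell are likewise described singly and not as tested groups. Ssr3, a subunit of the translocon-associated complex of the endoplasmic reticulum, read 12.68 and 11.72 without EGF and 10.56 and 10.19 with EGF (-1.82, SE 0.282, adjusted p = 0.0144). Rab7, the GTPase of late endosomes, read 11.51 and 11.55 without EGF and 10.20 and 9.57 with EGF (-1.64, adjusted p = 0.0335). Rangrf, a Ran-binding nucleotide release factor, read 11.16 and 11.30 without EGF and 9.63 and 8.88 with EGF (-1.97, adjusted p = 0.0302). These were the 3 widest decreases.

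Nfe2l1, a transcription factor that drives proteasome genes, read 11.79 and 11.72 without EGF and 10.52 and 10.45 with EGF (-1.27, adjusted p = 0.0357). Csnk1d, casein kinase 1 delta, read 13.45 and 13.37 without EGF and 12.28 and 12.48 with EGF (-1.03, adjusted p = 0.0498). Ggh, an enzyme that cleaves polyglutamated folates, read 12.75 and 12.51 without EGF and 11.55 and 11.15 with EGF (-1.28, adjusted p = 0.0231). Pdzd11, a small PDZ domain protein, read 13.33 and 13.30 without EGF and 12.37 and 11.97 with EGF (-1.14, adjusted p = 0.0144). The other two probes that fell, by 1.02 and 1.00 on the log2 scale, have no single gene symbol.

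The probes of one gene often differed among the genes that fell. The other probes of Ssr3 differed by -0.67 and -0.29, of Rab7 by -0.31, of Nfe2l1 by -0.15 and of Csnk1d by -1.33, 0.08 and 0.80, and none of these passed. So each of these genes had at least 1 other probe whose difference was -0.31 or closer to 0. Of the genes next in line by unadjusted p, the sialyltransferase St6galnac6 read 11.33 and 9.76 without EGF and was at the floor on both EGF arrays. It was thus at least 10.4-fold lower with EGF (adjusted p = 0.0551). The sorting nexin Snx12 differed by -1.27 (adjusted p = 0.0575) on 1 probe and by 0.22 on another.

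Across all 18 arrays, 9 of the 20 probes were set apart by the arrays with TCDD and no EGF. For these 9, all 4 such arrays (TCDD and IDMB + TCDD) lay outside the range of the other 14 arrays, 5 above and 4 below. Over all 7134 probes tested, 123 (1.72%) were set apart in this way. The pattern was looked for after the values were seen, in probes called on 2 of these groups, so the count is a description only. For Ssr3 the 4 arrays read 11.72 to 13.05 and the other 14 read 10.19 to 11.30. For Nfe2l1 the 4 read 11.72 to 12.17 against 10.11 to 11.05, and for Csnk1d 13.37 to 13.93 against 12.18 to 13.08. Chd8, Rnf149, Set and Ncoa6 had the reverse order, with the 4 arrays lowest. In 7 of the 20 the IDMB + TCDD pair, taken by itself, was outside the other 16 arrays, against 4.25% of all probes tested. In 4 the IDMB + EGF + TCDD pair was, namely Aldh3a1, Ccn5, Ggh and Ssr3, against 1.89% of all. The same 4 arrays with TCDD and no EGF had the lowest Gapdh 3′ to 5′ ratios of the series, 0.854 to 1.09, against 1.19 to 2.86 on the other 14. The part of that ratio in these genes was not tested separately. With it as a covariate the difference was -1.55 for Ssr3, -0.68 for Nfe2l1, -0.86 for Csnk1d, 1.10 for Chd8 and 1.33 for Rnf149, and none passed.

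The EGF effect was next set beside the EGF effect in 3 other backgrounds, none of which shares an array with this comparison. EGF moved 271 probes in the mix without TCDD (3.8%), 250 with TCDD and no mix (3.5%) and 440 in UT cells (6.17%). By the brightest probe of each gene, the shares that rose and fell were 2.12% and 1.97% in the mix, 1.49% and 1.53% with TCDD and no mix, and 4.12% and 2.81% in UT cells. Each of those counts also rested on single arrays: they ranged from 30 to 259, from 1 to 221 and from 14 to 508 when 1 array was left out. Of the 20 probes that passed here, 17 had the same sign with TCDD and no mix, and 9 of them passed there. In the mix 11 had the same sign and 4 passed, and in UT cells 14 had the same sign, of which 2 passed. Over all 7134 probes the same sign was found in 61.8%, 52.4% and 54.9% in that order. In UT cells 2 of the 20, Ccn5 (-1.34) and Aebp1 (-0.87), passed with the opposite sign.

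**Figure D4:**
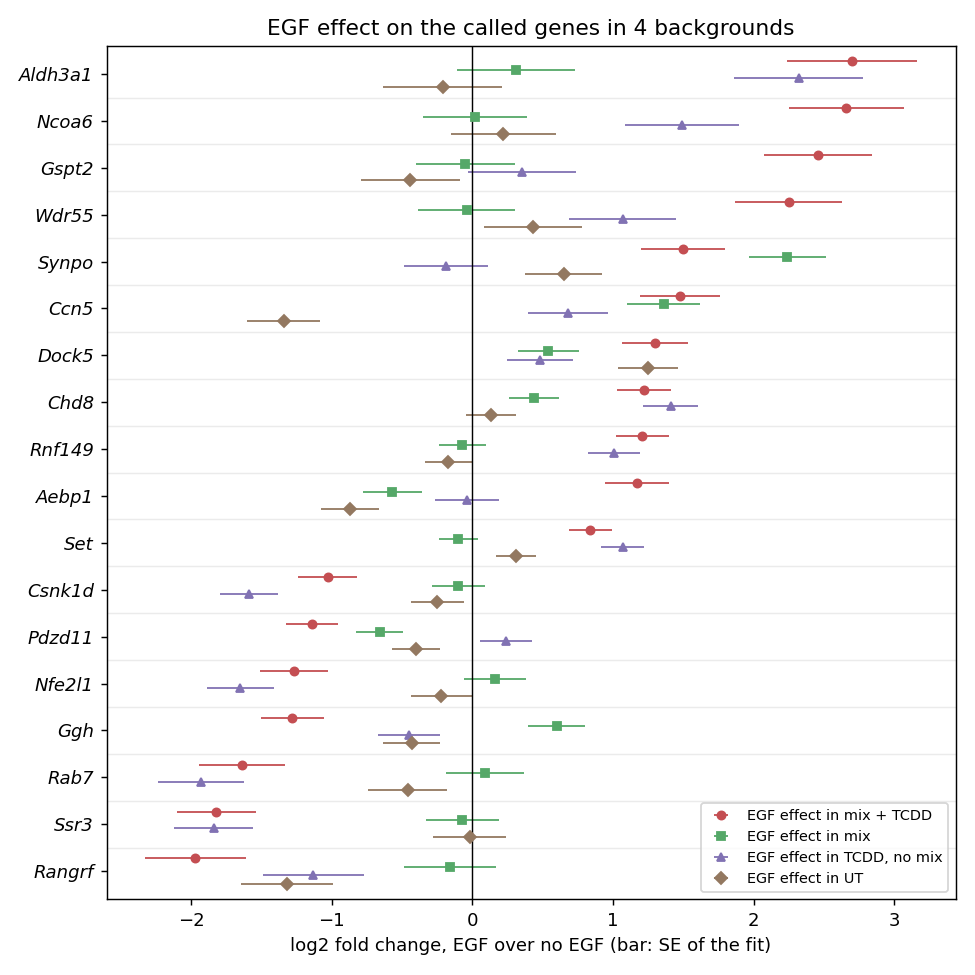
EGF effect (log2 fold change, bar for the SE of the fit) on the 18 named genes that passed, in 4 backgrounds. Aldh3a1, Chd8, Rnf149, Set, Csnk1d, Nfe2l1, Rab7 and Ssr3 have like values with TCDD in the mix and with TCDD and no mix. In the same order Gspt2 is 2.46 and 0.35, Aebp1 1.17 and -0.04 and Ggh -1.28 and -0.45, though none of these differences passed. Ccn5 is 1.48 in the mix with TCDD and -1.34 in UT cells.

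The difference between EGF effects was tested in the same fit. Against cells with TCDD and no mix, 0 probes differed (0.0%; 532 had an unadjusted p under 0.05), so no difference was detectable with these arrays, where the median SE of such a difference was 0.407. Against the mix without TCDD, 70 probes differed (0.981%), 42 toward a higher EGF effect with TCDD and 28 toward a lower one. Against UT cells, 16 differed (0.224%), 12 higher and 4 lower. Without IDMB + EGF + TCDD 2 each of these fell to 1 probe, and without IDMB + TCDD 1 they were 7 and 8. With the Gapdh ratio as a covariate they were 1 and 0 (658 with an unadjusted p under 0.05 for the latter), and with the actin ratio 4 and 7. On the 9 arrays with the mix alone, 2 probes differed from the mix without TCDD.

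Saa3, an acute phase protein of inflamed fat and fibroblasts, differed from both. It read 13.21 and 13.59 on the IDMB + TCDD arrays and 12.65 and 12.37 with EGF, an EGF effect of -0.89 that did not pass. In the mix without TCDD, Saa3 went from 13.78, 15.17 and 14.31 to 10.69 and 10.82 with EGF (-3.67, passed), and in UT cells from 12.03, 13.43 and 12.39 to the floor on both EGF arrays (-5.45, passed). The differences of effect were 2.78 (SE 0.597, adjusted p = 0.0433) and 4.56 (adjusted p = 0.00588). The chemokine gene Ccl9 differed in the same way from the mix: its EGF effect was 0.32 here and -2.57 there (difference 2.89, adjusted p = 0.0433). Its level on the IDMB + TCDD arrays was already low, at 11.19 and 10.27, against 14.93 to 16.29 on the IDMB arrays.

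Other genes that differed from the mix were set apart by their level without EGF. Pea15a, a phosphoprotein that binds ERK, read 8.63, 8.44 and 8.28 in IDMB and 11.82 and 11.24 in IDMB + EGF, an EGF effect of 3.08. With TCDD it read 11.57 and 10.68 without EGF and 10.68 and 8.73 with EGF, an effect of -1.42 that did not pass (difference -4.49, SE 0.753, adjusted p = 0.014). Mme, the membrane peptidase neprilysin, had an EGF effect of 2.19 in the mix and -1.02 with TCDD (difference -3.21, adjusted p = 0.00951). The gap junction gene Gja1 and the myosin light chain Myl9 differed toward higher EGF effects with TCDD, by 2.91 and 3.73, and Myl9 was at the floor on 3 of the 4 arrays compared. Against UT cells, Ccn5 differed by 2.83 (SE 0.385, adjusted p = 0.00588), Gspt2 by 2.91 and Cd70, a ligand of the tumour necrosis factor family, by 4.12 (adjusted p = 0.0106).

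No tested member of the lists on fat cell differentiation passed by its brightest probe. Over all genes tested that way, 0.166% passed as higher and 0.0552% as lower. Among adipogenic transcription factors 15 were tested and 0 passed. The median was -0.24 (-0.09 without IDMB + EGF + TCDD 2 and -0.41 without IDMB + EGF + TCDD 1), and 1 gene in each direction had an unadjusted p under 0.05. Cebpa read 13.02 and 13.44 without EGF and 11.90 and 12.11 with EGF, a difference of -1.22 (SE 0.485, adjusted p = 0.33). That difference was -0.13 with the Gapdh ratio and -0.97 with the actin ratio as a covariate. Pparg, the receptor that BRL49653 binds, read 10.27 and 10.19 without EGF and 9.86 and 8.83 with EGF, a difference of -0.89 (adjusted p = 0.423). Cebpb differed by 0.01. In the mix without TCDD or EGF, Pparg read 12.00, 11.36 and 11.15, so all 4 arrays with TCDD lay below that group.

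Of 23 tested adipocyte and PPARγ target genes, 0 passed, 4 had an unadjusted p under 0.05 with a lower level and 1 with a higher level, and the median was -0.31 (-0.17 without IDMB + TCDD 2 and -0.52 without IDMB + EGF + TCDD 1). The lower 4 were the lipase cofactor Abhd5 (-0.87), the soluble epoxide hydrolase Ephx2 (-1.26) and the acute phase proteins Hp (-1.33) and Orm1 (-1.18), with adjusted p-values of 0.218 to 0.378. The higher gene was Lep, the hormone leptin (0.76). At the same unadjusted level, 5.43% of all genes were lower and 5.72% higher. Adipoq differed by -0.16 and Fabp4 by -0.38. In the mix without TCDD the median EGF effect on this list was -0.76, with 5 genes lower that passed. With the Gapdh or the actin ratio as a covariate the median became 0.05 or -0.02, and that of the transcription factors -0.11 or 0.01. Among 28 inhibitors of adipogenesis 0 passed, 4 had an unadjusted p under 0.05 with a higher and 1 with a lower level, and the median was 0.05.

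**Figure D5:**
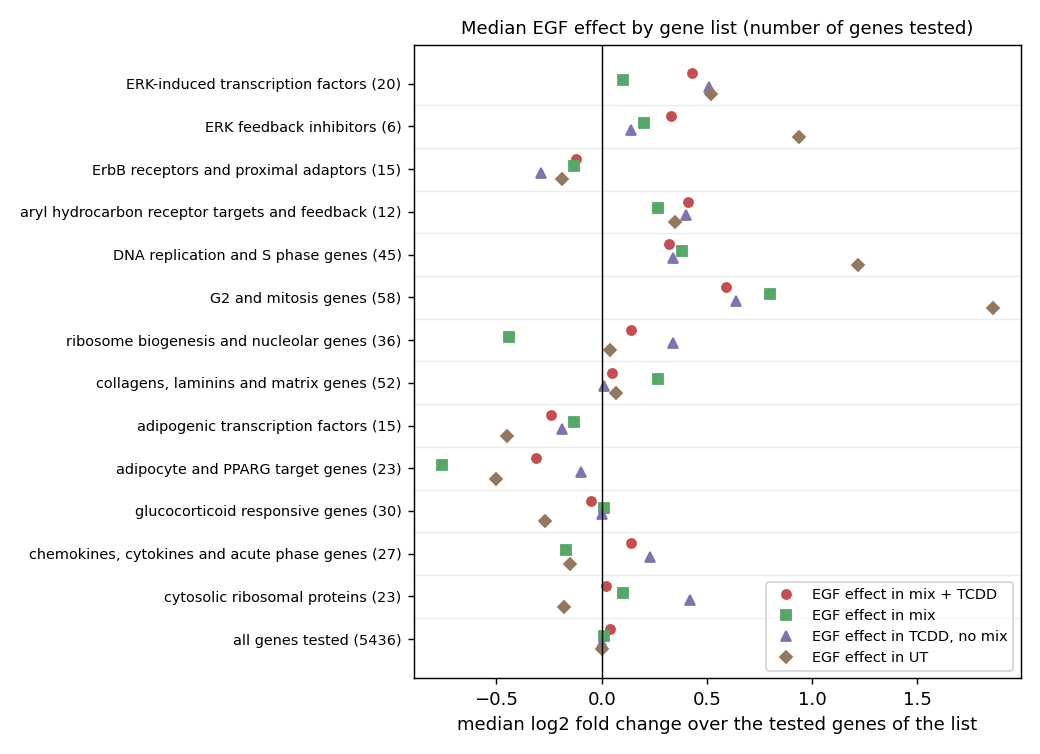
Median log2 EGF effect over the tested genes of 13 gene lists and over all 5436 genes, in 4 backgrounds, with the number of genes in brackets. In the mix with TCDD the ERK-induced transcription factors (0.43), the aryl hydrocarbon receptor list (0.41) and the G2 and mitosis genes (0.59) lie above the median of all genes (0.04), and the adipocyte genes (-0.31) lie below it.

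The cell cycle genes turned on which IDMB + TCDD array was used. The 58 tested genes of G2 and mitosis had a median of 0.59, and 51 had a positive difference. Of these 58 genes 0 passed, and 9 had an unadjusted p under 0.05 with a higher level (15.5%, against 5.72% of all genes). The mean level of the list was 12.32 on IDMB + TCDD 1 and 10.75 on IDMB + TCDD 2, against 12.52 and 11.79 on the EGF arrays, so the groups overlapped. Without IDMB + TCDD 1 the median was 1.33, and without IDMB + TCDD 2 it was -0.16. The proliferation marker Mki67 read 13.34 and 11.02 without EGF and 13.98 and 12.72 with EGF, and the mitotic kinase gene Cdk1 read 14.32 and 12.70 without EGF and 14.53 and 13.55 with EGF. TCDD 1 and 2, without the mix, had a like gap, at 12.83 and 11.48 for the list.

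The 45 tested genes of DNA replication had a median of 0.32. None passed, 5 had an unadjusted p under 0.05 with a higher level, and the median was 0.68 without IDMB + TCDD 1 and 0.01 without IDMB + TCDD 2. Mcm5, a subunit of the replicative helicase, read 12.40 and 11.16 without EGF and 13.08 and 12.94 with EGF (1.23, adjusted p = 0.246). In UT cells 41 of the 58 mitosis genes and 24 of the 45 replication genes passed as higher with EGF, against 4.12% of all genes tested. The D cyclins link growth factor signals to the cycle. Ccnd1 read 10.15 and 10.12 without EGF and 10.83 and 12.01 with EGF (1.29, adjusted p = 0.183), and Ccnd2 was at the floor on both arrays without EGF and read 8.16 and 10.31 with EGF. For Ccnd2 the floor makes the difference of 2.07 between the measured intensities a lower bound (adjusted p = 0.245). With the Gapdh ratio as a covariate the difference was 0.04 for Ccnd1 and -0.30 for Ccnd2. With the actin ratio it was 0.25 and 0.67. Of 21 genes of the G1 control list 0 passed, and 4 had an unadjusted p under 0.05 with a higher and 2 with a lower level. Across all genes tested 5.72% were higher and 5.43% lower at that level.

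Matrix genes gave the only list with a member that passed by its brightest probe, Ccn5. Of 52 tested genes 10 had an unadjusted p under 0.05 with a higher and 2 with a lower level, with a median of 0.05. Over all genes tested those shares were 5.72% and 5.43%. Col1a2, an interstitial collagen, read 16.17 and 16.29 without EGF and 16.90 and 16.74 with EGF (0.59, adjusted p = 0.169), and fibronectin, Fn1, differed by 0.57 (adjusted p = 0.178). Among protease control genes the inhibitors went both ways: Timp1 differed by 0.81, Timp3 by 0.96 and Timp2 by -1.52 (adjusted p = 0.0972). Of those 22 genes 0 passed, and 3 had an unadjusted p under 0.05 with a higher and 2 with a lower level. Among 28 contractile genes 0 passed, 4 were higher and 3 lower at an unadjusted p under 0.05, and the heavy chain of nonmuscle myosin, Myh9, read 14.88 and 14.91 without EGF and 15.67 and 15.95 with EGF (0.91, adjusted p = 0.0575).

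Among 27 chemokine, cytokine and acute phase genes 0 passed, 1 was higher and 5 lower at an unadjusted p under 0.05, and the median was 0.14. For all genes tested the shares at that level were 5.72% higher and 5.43% lower, to be set beside each list below. Ccl2, the monocyte chemokine, read 11.40 and 10.99 without EGF and 12.22 and 13.02 with EGF (1.42, adjusted p = 0.334). With the Gapdh or the actin ratio as a covariate the Ccl2 difference was -0.40 or 0.09. Among 30 glucocorticoid-responsive genes 0 passed, 1 was higher and 6 lower at that level, and the median was -0.05. Of 36 genes of ribosome biogenesis 0 passed and 6 were higher, with a median of 0.14, and Nop2, a nucleolar RNA methyltransferase, differed by 1.08 (adjusted p = 0.12). Of 23 cytosolic ribosomal protein genes 0 passed and 1 was lower at that level, Rps19, which read 15.72 and 16.32 without EGF and 14.54 and 14.46 with EGF (-1.51, adjusted p = 0.0729). Among 31 genes for chaperones of the endoplasmic reticulum and the unfolded protein response, 0 passed by their brightest probe. At that level 2 were higher and 4 lower, and the translocon subunit gene Sec61b differed by -0.69 (adjusted p = 0.0707). Ssr3, also of the endoplasmic reticulum, passed as described above. The remaining lists, on lipid and cholesterol synthesis, fatty acid oxidation, cAMP, NRF2, interferon and insulin or IGF signalling and secreted ERK targets, had 0 calls each, with 0 to 4 genes higher and 0 to 2 lower at an unadjusted p under 0.05, and medians of -0.13 to 0.12. The list genes named here that are not anchors of a list were chosen after their values were seen, from those with an unadjusted p under 0.05.

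Most markers of other cell types were too dim to test, but not all were low. Of 17 bone and cartilage genes on the array 4 were bright enough to test, of 27 skeletal muscle genes 9, of 22 macrophage genes 4, of 13 endothelial genes 3 and of 14 epithelial genes 1, and 0 passed in any list. At the unadjusted p under 0.05, 2 bone and cartilage genes and 1 muscle gene were higher and 1 macrophage gene lower. Mean levels of the tested macrophage genes were 10.54 and 10.55 without EGF and 10.08 and 10.74 with EGF, those of the muscle genes 9.92 and 9.97 against 9.88 and 10.28, and those of the endothelial genes 10.38 and 10.66 against 9.61 and 10.43. The bone and cartilage genes read 11.06 and 10.98 against 11.36 and 11.27, and the epithelial gene Cdh1 10.92 and 11.05 against 10.69 and 10.72. Adgre1, the macrophage marker F4/80, was at the floor on 3 of the 4 arrays, and the endothelial marker Cdh5 on all 4. Other markers of these cell types were brighter on the 4 arrays: Csf1r read 9.46 to 10.13, Cd68 7.16 to 10.27 and Kdr 7.22 to 9.55. The muscle gene Myod1 read 10.17 to 10.76. In pooled cultures, a change in the share of cells of one kind and a change of RNA per cell cannot be told apart.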

How the data were processed

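RNA from C3H10T1/2 cultures was measured on 18 one-colour arrays with 12488 probes, of which 66 are controls. The deposited values are linear signal intensities, with a mean close to 2502 on each array after trimming 2% of the values at each end. The scaling and the software were not given in the sources used here. Array medians lay within 1.18-fold of each other, so the values were used as deposited, floored at their 20th percentile (143.5) and taken as log2. Control probes were left out, and testing was limited to probes with at least 1 group mean at or above the overall log2 median (7134 probes, 5438 genes). Probes were named from the platform annotation: 10833 have 1 gene symbol, 396 several and 1193 none.

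Group means were fitted with limma 3.58.1 (R 4.3.3; lmFit, eBayes with a variance trend) over 8 groups, with 10 residual degrees of freedom. Contrasts and differences of contrasts were adjusted by Benjamini-Hochberg over all 7134 probes. The p-values measure the spread between arrays of pooled RNA, which may be partly technical. An exact permutation test of 2 arrays against 2 cannot go below a two-sided p of 0.333, so none was run. On simulated data with known changes in 7134 genes, the fit recovered 50% of log2 changes of 1 and 87% of changes of 2, with 4 false calls among 141. For the differences of EGF effects against the mix and against UT it recovered 9% and 14% of changes of 1, and 71% of changes of 2 in both. The simulated noise was independent for each gene and array, with no factor shared across the genes of an array. The share of false calls on the real arrays therefore cannot be read from it.

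Genes named are Egr1 and Dusp6, anchor genes of 32 lists, genes that passed in each direction (filled to 10 by unadjusted p), and the 6 widest differences of EGF effects in each direction. The genes that passed and the fill were limited to those without overlap between the arrays of the compared groups. The members and lists were chosen with earlier results of these data known. A list is described by 1 probe per gene, the brightest over 18 arrays, with no test of the list. Alternatives changed the scaling, floor, filter, trend, samples and covariates 1 at a time.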

Additional observations from a re-analysis of the deposited data

Results flagged for a closer look

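The EGF effect differed between backgrounds, by the limma test of the difference of contrasts, for 70 probes between the mix with TCDD and the mix alone. The widest differences toward a higher EGF effect with TCDD were those of Myl9 (3.73), Slc20a1 (3.71), Gpr137b-ps (3.22), Gja1 (2.91), Ccl9 (2.89) and Saa3 (2.78) on the log2 scale. The widest toward a lower effect were those of Pea15a (-4.49), Wwc1 (-4.27), Snapc3 (-3.24), Mme (-3.21), Iigp1 (-2.88) and Fbn2 (-2.46). Of these genes EGF itself moved none past the test in the mix with TCDD, whereas in the mix alone it moved all except Wwc1 (2.16, adjusted p = 0.0644) and Snapc3 (0.93, adjusted p = 0.315).

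Between the mix with TCDD and UT cells the EGF effect differed for 16 probes. It was higher in the mix with TCDD for Saa3 (4.56), Cd70 (4.12), Cacna2d1 (3.98), Gspt2 (2.91), Lcn2 (2.85) and Ccn5 (2.83). It was lower for Ppie (-3.96), Rflnb (-1.91), Dhrs4 (-1.89) and Rbm14 (-1.86). The groups have 2 or 3 arrays each, too few for a search for single outlying arrays.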

How the results depend on the processing

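The 20 probes that passed for EGF in the mix with TCDD became 37 with median scaling, 0 with the Gapdh or the actin ratio as a covariate, and 0 on the 9 arrays with IDMB or the 4 compared, with 0 to 16 when 1 array was left out. The count was 18 to 29 with quantile normalization, other floors, log2(value + floor), other filters or no variance trend. With the replicate number as a block (replicate block) 40 probes passed. Replicate 1 minus replicate 2 correlated at 0.199 between the compared groups, and at -0.103 to 0.279 over the 28 pairs of groups, over 0.1 in 9. Those 9 pairs were all among UT, TCDD, IDMB, IDMB + TCDD and IDMB + EGF + TCDD, which include both compared groups. In each of these groups the mean of the G2 and mitosis genes was higher on replicate 1 than on replicate 2. The labels give no pairing by number, and a factor shared by arrays of equal number was not tested. The 70 differences against the mix became 38 with median scaling, 27 without a filter, 33 without a variance trend, 162 with the replicate block, 1 and 4 with the Gapdh and actin ratios, 2 on the arrays with IDMB, and 1 to 79 when 1 array was left out. The 0 differences against TCDD without the mix became 6 without a filter, 1 without a variance trend and 0 to 1 when 1 array was left out. The 16 differences against UT became 9 without a filter, 95 with the replicate block, 0 and 7 with the Gapdh and actin ratios and 1 to 28 when 1 array was left out. The EGF counts ranged over 30 to 259 in the mix, 1 to 221 with TCDD and 14 to 508 in UT when 1 array was left out. No gene that passed changed direction under any setting run. Beyond the smaller number of arrays in some fits, the cause of these shifts was not tested.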
